A study of Mus musculus with 9 samples.

Results

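The genes described here are Calm2, Baiap2l1, Oser1, Gm1965, Taf1a, Rbm25 and Zfp57. Among rows with 1 gene symbol, theirs gave some of the highest array signals in single mouse oocytes. Counted among all rows, also those with several symbols or none, these genes held ranks 17 to 36. They are 7 of 19938 genes with a row of their own in the array table. They were chosen by their mean log2 expression value over all 9 arrays, taking for each gene its row with the highest mean, and passing over genes that belong to larger functional families. That mean, and the rank it gives, is therefore a description and carries no test. The last gene chosen, Zfp57, had a mean of 12.89 and rank 8. The next gene down, Wtap, had 12.87, and Eif4e1b, which was passed over, held rank 2 with 13.09. The row chosen for Baiap2l1 lists no RefSeq transcript of that gene, as described below.

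Each array measured 1 oocyte at metaphase II from ICR mice, an outbred strain. The females were 2 months old, unmated, and had been given 10 IU of PMSG and then 10 IU of hCG after 46 hours to make them ovulate. In the RNeasy group (3 oocytes) the RNA came off a Qiagen RNeasy Mini column, and in the PicoPure group (3 oocytes) off an Arcturus PicoPure column. In the direct lysis group (3 oocytes) a crude lysate in NuGEN buffer was used without purification. All groups share the strain, the hormone treatment, the NuGEN One-Direct amplification and the Affymetrix Mouse Gene array. Between 1 and 3 cells came from each of 3 mice per condition. The labels do not tie oocytes to mice, so every p-value rests on variation among single oocytes, and siblings may be among them. Of 12 oocyte marker genes such as Gdf9, Bmp15 and Zp3, 12 lay above background on all 9 arrays. The same held for 4 of 14 cumulus and granulosa genes, 1 of 7 blood genes and 2 of 6 oviduct genes, against 43.1% of all genes. Of these, the granulosa list gene Nr5a2 (mean 10.45) and the oviduct list gene Cdh1 (11.62) had high signal. Background was set at the 95th percentile of the sensory receptor genes on each array, and lay between 7.19 and 7.48.

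A mature oocyte has stopped transcribing and lives on a stock of maternal messages laid down during growth, many of them stored with short poly(A) tails until meiosis or fertilization calls for them. That stock has to serve the completion of meiosis, the calcium response to sperm, and the first divisions of the embryo. Calm2 encodes calmodulin, the calcium sensor that turns calcium oscillations at fertilization into kinase activity and exit from metaphase II. Zfp57 encodes a zinc finger protein that keeps methylation at imprinted loci after fertilization and is itself supplied by the mother. Rbm25 encodes an RNA-binding splicing regulator, and Taf1a a subunit of the factor that brings RNA polymerase I to ribosomal RNA genes. Baiap2l1 encodes a membrane-bending adaptor of the actin cytoskeleton, and Oser1 a serine-rich protein named for its response to oxidative stress. Gm1965 is a long noncoding RNA gene in the RefSeq table.

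High signal is not the same as an abundant message. A row's signal also depends on how well its probes bind, so signals of different rows do not order messages by amount, and the rank below is a rank of signal only. The rows of these genes show the point, since 15 rows carry their symbols and 5 of the 7 genes have more than 1 row. The most consequential case is Baiap2l1. Its row with the highest mean (10445185, mean 13.03) lists 2 RefSeq accessions, and 0 of them is a Baiap2l1 transcript in the RefSeq table. By general knowledge these are the records of 18S ribosomal RNA and of its 45S precursor, and the latter is shared with the row that carries the 28S ribosomal RNA gene Rn28s1 among its symbols (mean 13.23). The row that lists the RefSeq transcript of Baiap2l1, and neither ribosomal record, had a mean of 12.09, which would place the gene at rank 348. Another Baiap2l1 row, with the same ribosomal accessions as the first, had 11.22. The values of the first row are therefore given below as those of the row labelled Baiap2l1. How much of its signal comes from each RNA was not tested. The other 6 chosen rows list only transcripts of their own gene among their RefSeq accessions.

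The promoters of these genes were of different kinds. RefSeq windows (GRCm38.p6) were found for 6 of the 7 genes, 9 windows in all, and the 250 bases before each start were searched on both strands for the GC box GGGCGG, the CCAAT box CCAAT, the TATA box TATAAA and the E-box CACGTG. The GC content ran from 32.4% in Rbm25 to 70.4% in Baiap2l1, against a median of 52.4% over 32851 windows. The GC box occurred in 1 of the 9 windows (Baiap2l1) and in 32.7% of all windows. The CCAAT box occurred in 4 of the 9, among them both Taf1a windows, which overlap, and in 33.9% of all. The TATA box occurred in 2 of 9 and in 12.4% of all, and CACGTG in 1 of 9 and 6.02% of all. A match is only a run of letters, and these arrays did not measure promoter activity. The windows of Oser1 (chr2:163419471-163419720, minus strand), which is rich in CpG and holds CACGTG, and of Rbm25 (chr12:83635460-83635709, plus strand), which has no CpG and holds a TATA box on the opposite strand, are shown because they differ most among the genes whose rows list their own message. Capitals mark the motifs.
Oser1: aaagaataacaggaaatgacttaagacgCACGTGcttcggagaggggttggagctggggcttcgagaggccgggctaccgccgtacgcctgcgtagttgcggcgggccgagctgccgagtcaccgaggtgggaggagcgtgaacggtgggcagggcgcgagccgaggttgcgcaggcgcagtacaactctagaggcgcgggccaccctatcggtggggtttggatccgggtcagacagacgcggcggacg
Rbm25: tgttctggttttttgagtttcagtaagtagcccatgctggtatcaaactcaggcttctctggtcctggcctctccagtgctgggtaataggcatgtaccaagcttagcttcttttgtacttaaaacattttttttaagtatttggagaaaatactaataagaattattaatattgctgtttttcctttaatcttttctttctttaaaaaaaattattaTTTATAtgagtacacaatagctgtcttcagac

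The rows used for all 7 genes stayed near the top on every oocyte's array. Each of them ranked among the 20 highest of 19938 genes on 9 of 9 arrays, and all lay above background on all arrays, by 5.60 to 5.80 log2 units on average. Calm2 took rank 1 on 4 arrays and never fell below rank 4. The row labelled Baiap2l1 ranged from rank 2 to 5, Gm1965 from 3 to 7, Oser1 from 3 to 9, Taf1a from 3 to 11, Zfp57 from 6 to 13 and Rbm25 from 2 to 19. Rank 19 for Rbm25 came from a single array, RNeasy replicate 3, and rank 12 on direct lysis replicate 2 was its next lowest.

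**Figure D1:**
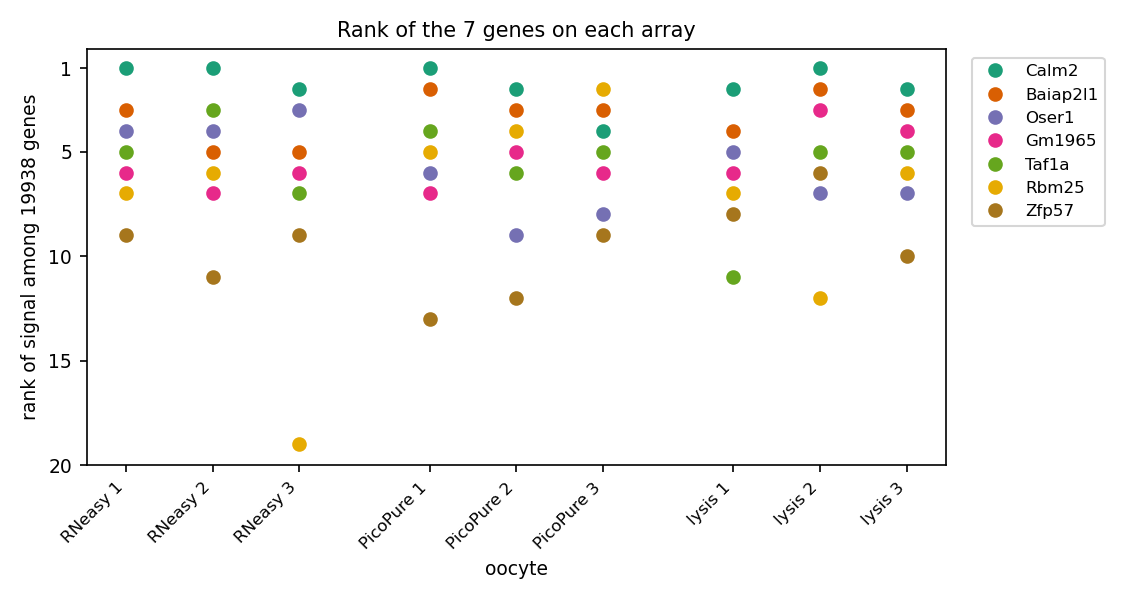
Rank of signal (vertical axis, rank 1 at the top, among 19938 genes) of each of the 7 genes on the arrays of 9 oocytes, grouped by preparation on the horizontal axis. Every point lies within the 20 highest ranks, with Calm2 between 1 and 4 and Rbm25 between 2 and 19.

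Neighbours in the order of the 7 were close. Calm2 exceeded the row labelled Baiap2l1 on 8 of 9 arrays, with means that differed by 0.067, and that row exceeded Oser1 on 7 of 9, by 0.057. Oser1, Gm1965 and Taf1a, with means of 12.97, 12.97 and 12.96, had no steady order. Oser1 was above Gm1965 on 5 of 9 arrays, and Gm1965 above Taf1a on 5 of 9. Taf1a was above Rbm25 on 6 of 9, and Rbm25 above Zfp57 on 7 of 9. When each gene was shown by the mean of its rows in place of its highest row, Taf1a, Oser1, Zfp57, Gm1965 and Calm2 held ranks 2, 3, 4, 6 and 7, while Baiap2l1 went to rank 285 and Rbm25 to 568. Counted among all rows, including those with several symbols or none, the 7 held ranks 17 to 36.

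Calm2, the calcium sensor gene, gave log2 values of 13.19, 13.16 and 13.14 in the 3 RNeasy oocytes, 13.09, 13.03 and 13.00 with PicoPure and 13.11, 13.04 and 13.08 with direct lysis. Every RNeasy oocyte was above every other oocyte, and the PicoPure and direct lysis values overlapped. PicoPure minus RNeasy was -0.13 ± 0.06 (SE), with a 95% interval from -0.26 to 0.01 (limma, adjusted p = 0.654, unadjusted p = 0.0647). With a further quantile normalization of the arrays the difference was -0.04. Its second row, with the same accessions, ran from 12.62 to 12.69 in RNeasy oocytes. PicoPure oocytes lay at 12.45 to 12.55 and direct lysis oocytes at 12.47 to 12.55, so RNeasy stood above the others there too. In that row PicoPure minus RNeasy was -0.17, with an interval from -0.31 to -0.03 (limma, adjusted p = 0.538 over all rows, unadjusted p = 0.0246). Rows with the same accessions are not independent measurements. After adjustment, neither difference passed the threshold of 0.05.

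Oser1, the oxidative stress-responsive gene, had 13.00, 13.03 and 13.01 with RNeasy, 12.98, 12.86 and 12.95 with PicoPure and 13.04, 12.95 and 12.91 with direct lysis. Again each PicoPure oocyte was below each RNeasy oocyte, while direct lysis spanned both. The difference between the kits was -0.08 ± 0.06 (SE), with an interval from -0.23 to 0.07 (limma, adjusted p = 0.793). The other Oser1 row lists the same accessions and did the same, with 12.93 on each RNeasy array and 12.76 to 12.90 with PicoPure. Calm2 and Oser1 were thus 2 of 7 genes whose PicoPure and RNeasy oocytes did not overlap. Among all genes the kits did not overlap in 13.9%, and in 7.03% every PicoPure oocyte was below every RNeasy oocyte. With only 7 genes, nothing more was read from a count of 2. For direct lysis against purified RNA 0 of 7 were free of overlap, with a background of 8.02%.

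Zfp57, the imprint protector, had 12.88, 12.90 and 12.89 with RNeasy, 12.84, 12.84 and 12.90 with PicoPure and 12.92, 12.96 and 12.87 with direct lysis. The 3 groups overlapped, and the SD of the RNeasy oocytes was 0.0075 (n = 3). Taf1a, the RNA polymerase I factor, had 12.98, 13.04 and 12.93 with RNeasy, 13.01, 12.91 and 12.98 with PicoPure and 12.88, 12.97 and 12.97 with direct lysis, and its groups overlapped in part. Each of these genes has 1 row only. Their direct lysis minus purified differences were 0.04 ± 0.05 (SE) for Zfp57 and -0.04 ± 0.06 for Taf1a (limma, adjusted p = 0.742 and 0.799).

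The noncoding Gm1965 was the steadiest of the 7 in the values as deposited. Its values were 12.96, 12.96 and 12.93 with RNeasy, 12.96, 12.95 and 12.98 with PicoPure and 12.98, 12.99 and 13.00 with direct lysis, a range of 0.064 log2 units or 1.05-fold over 9 oocytes. The second Gm1965 row was not steady. It had 12.53, 12.64 and 12.26 with RNeasy against 12.90, 12.73 and 12.73 with PicoPure and 12.73, 12.87 and 12.78 with direct lysis, so that every RNeasy oocyte was below all the others. In that row PicoPure minus RNeasy was 0.31 ± 0.11 (SE), with an interval from 0.06 to 0.56 (limma, adjusted p = 0.533 over all rows, unadjusted p = 0.0225). In the row used it was 0.01 ± 0.05 (limma, adjusted p = 0.98 over all rows). With the mean of both rows it was 0.16, and direct lysis minus purified went from 0.03 to 0.095 (limma, adjusted p = 0.641 and 0.523). Both rows list the same 4 RefSeq transcripts, and only 1 of them was steady. Kits did not overlap in 14.1% of all rows with 1 symbol.

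Rbm25, the splicing regulator, varied most. It had 12.89, 12.97 and 12.79 with RNeasy, 12.99, 12.95 and 13.06 with PicoPure and 12.95, 12.82 and 12.94 with direct lysis. The groups overlapped, and the whole range was 0.27 log2 units or 1.21-fold. Its 4 rows did not behave alike. The second row, at a mean of 12.66, had the same overlapping groups. In the third (10397085, mean 11.06) the direct lysis oocytes had 10.55, 11.07 and 10.57, all below the purified oocytes at 11.09 to 11.40. That difference was -0.49 ± 0.13 (SE), with an interval from -0.80 to -0.18, and did not pass over all rows (limma, adjusted p = 0.163, unadjusted p = 0.00654). Of all rows with 1 symbol, 4% had every direct lysis oocyte below every purified one. In the fourth row, at a mean of 10.52, direct lysis had 10.45, 10.56 and 10.28 and overlapped the purified oocytes. With the mean of its 4 rows, direct lysis minus purified was -0.18 ± 0.06 (SE) in place of -0.04 (limma, adjusted p = 0.218).

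The row labelled Baiap2l1 had 13.01, 13.02 and 12.96 with RNeasy, 13.04, 13.01 and 13.06 with PicoPure and 13.07, 13.04 and 13.06 with direct lysis. The groups overlapped, within a range of 0.11. The row that lists the Baiap2l1 message itself had 12.10, 11.96 and 12.02 with RNeasy, 12.18, 12.08 and 12.15 with PicoPure and 12.11, 12.07 and 12.10 with direct lysis, and its groups overlapped as well. The kits differed by 0.04 in the first row and by 0.11 in the second (limma, adjusted p = 0.882 and 0.723 over all rows).

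**Figure D2:**
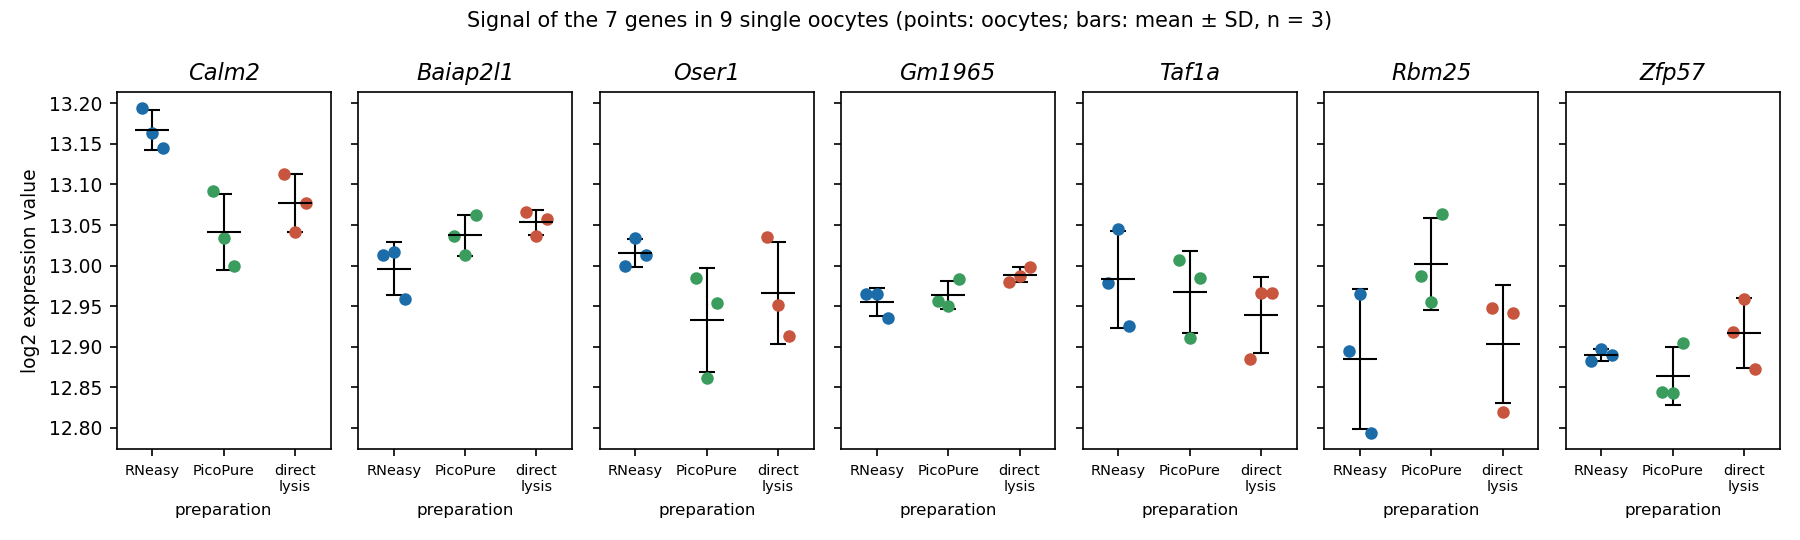
Log2 expression values (vertical axis) of the 7 genes in single oocytes by preparation (horizontal axis), with points for oocytes and bars for the mean ± SD of 3. Calm2 lies highest in the RNeasy oocytes (13.14 to 13.19), and Gm1965 stays between 12.93 and 13.00 in all preparations.

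**Figure D3:**
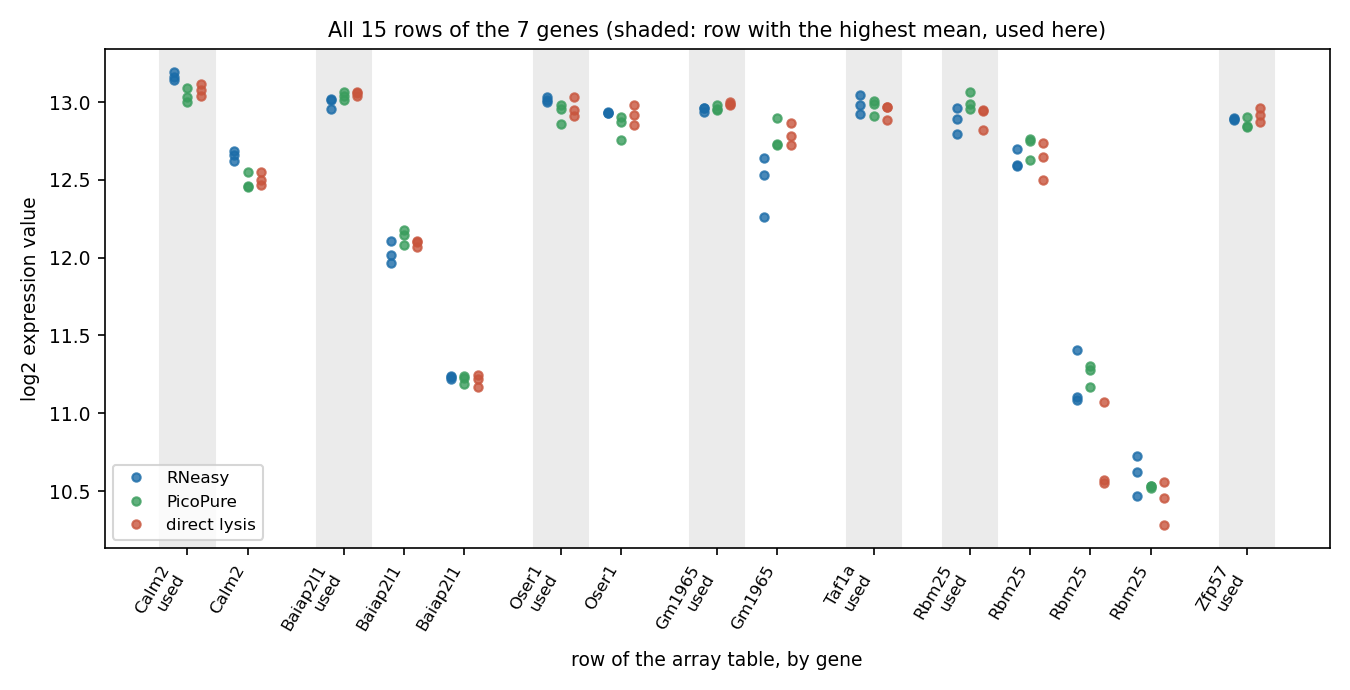
Log2 expression values (vertical axis) of all 15 rows that carry the symbol of 1 of the 7 genes (horizontal axis), coloured by preparation, with the row used for each gene shaded. Rows of the same gene differ in level, as for Rbm25 at means of 12.93, 12.66, 11.06 and 10.52, and the third Rbm25 row is the one whose direct lysis oocytes lie below all others.

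No difference between preparations passed the test for any of these genes. Direct lysis was compared with both purified groups together (limma fit over all 9 arrays and 19938 genes), and 0 of 7 genes passed, against a background of 1.01% of all genes. Between PicoPure and RNeasy 0 of 7 passed, with a background of 0.0602%. For any difference among the 3 preparations (moderated F) 0 of 7 passed, with a background of 0.637%. At an unadjusted p under 0.05 the count in this fit, by the row used for each gene, was also 0 in each of these comparisons. The background was 14.2%, 7.98% and 12.8% of all genes. With shares this low, 0 of 7 is close to the background, and the intervals say more than the count. For direct lysis against purified RNA the 7 intervals together ran from -0.19 to 0.15 log2 units. For PicoPure against RNeasy they ran from -0.26 to 0.29. The widest bounds correspond to 1.20-fold lower and 1.22-fold higher. They are bounds on signal near the top of the scale, not on message amount. For the row used for each gene, larger differences in signal lay outside every 95% interval of this fit. This does not hold for the lower rows of Calm2, Rbm25 and Gm1965 described above. For the kits, the second rows of Calm2 and Gm1965 had an unadjusted p of 0.0246 and 0.0225 (limma). The third Rbm25 row had 0.00654 for direct lysis (limma). By the moderated F these rows of Calm2, Gm1965 and Rbm25 had an unadjusted p of 0.0465, 0.0324 and 0.0195. None of them passed after adjustment. The unadjusted counts and the intervals depend on the variance model of the fit. With another variance model the SEs of the rows used were smaller. For Calm2 between the kits the SE was 0.0373 in place of 0.0585, at the same difference of -0.1255 (limma, adjusted p = 0.472). Unadjusted p-values and intervals under that model are not given here. For direct lysis the median size of the difference was 0.036 for the 7 genes, 0.059 for the 500 genes with the highest mean and 0.12 for all genes. For the kits it was 0.041, 0.073 and 0.10. Lower and higher genes were mixed, with 3 higher and 4 lower in each comparison. Buffer and column step changed together in the direct lysis group and cannot be told apart.

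**Figure D4:**
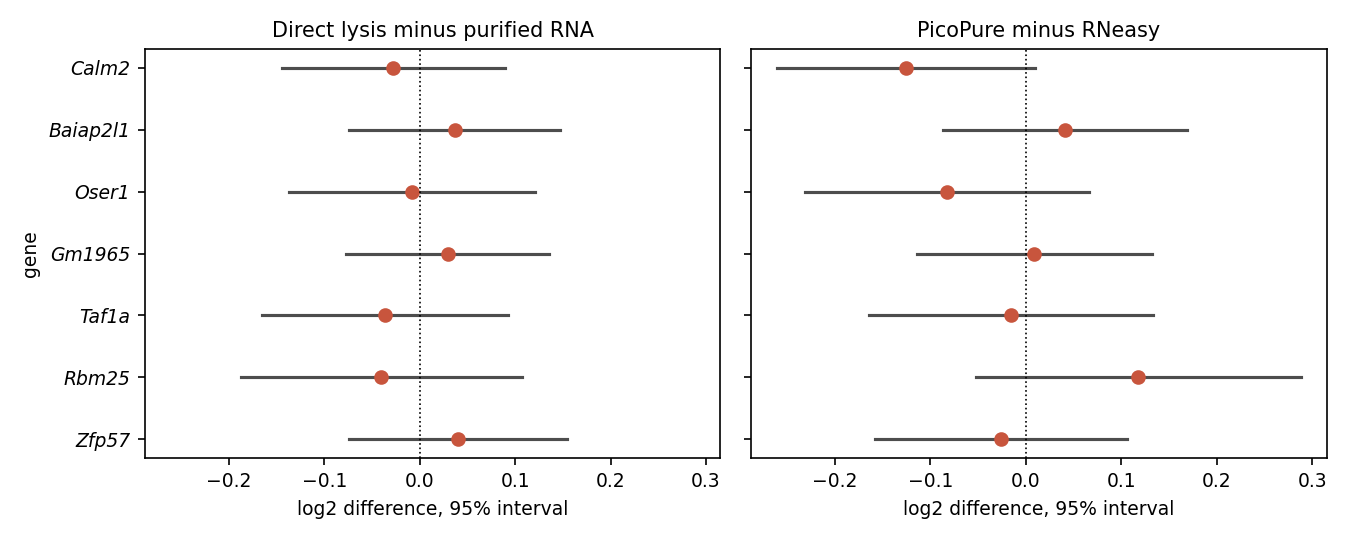
Log2 differences (horizontal axis) with 95% intervals from the limma fit for each of the 7 genes (vertical axis), for direct lysis minus purified RNA on the left and PicoPure minus RNeasy on the right. All 14 intervals include 0, and they lie between -0.26 and 0.29. Their width depends on the variance model of the fit.

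The spread between oocytes of the same preparation was small in the rows used for all 7 genes. The pooled SD was 0.015 for Gm1965, 0.0255 for the row labelled Baiap2l1, 0.0325 for Zfp57, 0.037 for Calm2, 0.053 for Oser1 and Taf1a and 0.073 for Rbm25. The median over all genes was 0.15, and over the 500 genes with the highest mean, all at 11.92 or above, it was 0.078. Small spread was thus common at high signal. All 7 lay below the median of those 500, and Gm1965 was the third smallest there, whereas Rbm25 was only 223rd. This order depends on the normalization. With a further quantile normalization the pooled SD was 0.0268 for Gm1965 and 0.0255 for Oser1. No test was made of this, since the genes were chosen by their mean and spread falls with the mean at the upper end of the scale. The highest value of any row on an array lay between 13.73 and 13.90.

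**Figure D5:**
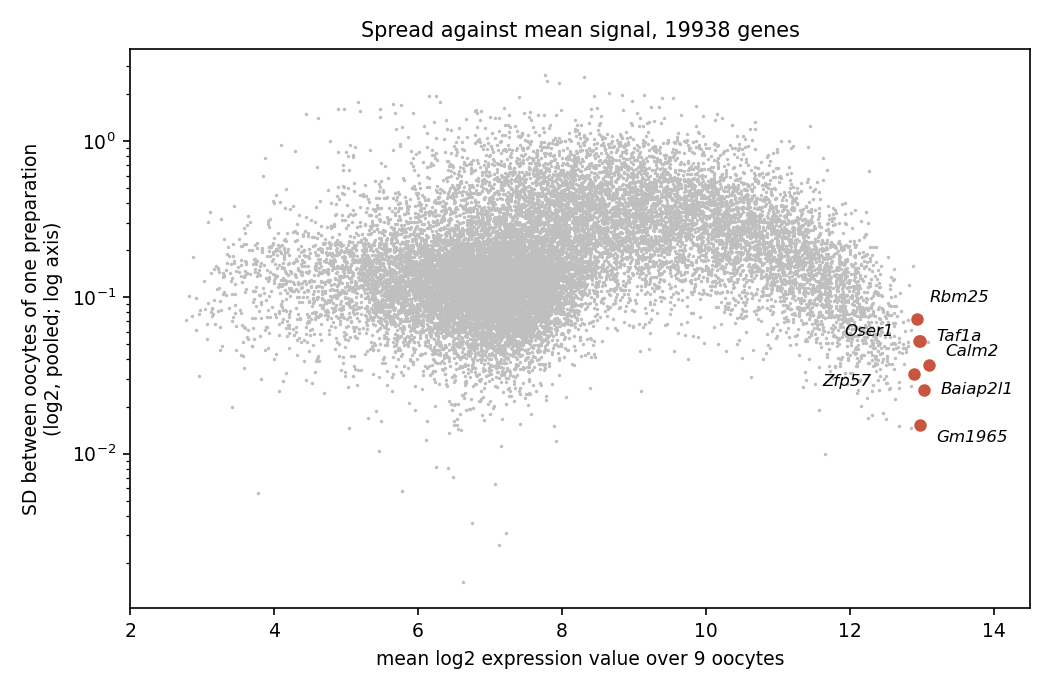
SD between oocytes of the same preparation (vertical axis, log2 units on a log axis, pooled over 3 preparations) against the mean log2 expression value (horizontal axis) for 19938 genes in grey, with the 7 genes in red. Spread narrows at the upper end of the scale, and the 7 genes lie at the right edge between 0.015 and 0.073.

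The lowest and highest values were spread over several oocytes. RNeasy replicate 3 gave the lowest value for 3 of the 7 genes, PicoPure replicate 2 for 2, and PicoPure replicate 3 and direct lysis replicate 1 for 1 each. Direct lysis replicate 1 gave the highest value for 2 genes. The median deviation of the 7 genes from their own means was lowest on PicoPure replicate 2 (-0.05) and highest on RNeasy replicate 2 (0.04).

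Genes with the most similar profile over the 9 arrays were found by the root mean square distance between profiles, each centred on its own mean, among 8596 other genes above background on all arrays. The distance favours steady genes for a steady gene and is a description only. Gm1965 and the row labelled Baiap2l1 were close to each other (0.019 log2 units), and the mitotic kinesin gene Kif23 was close to both (0.017 to Gm1965 and 0.020 to the row labelled Baiap2l1). Oser1 was nearest to Ube2d3, a ubiquitin-conjugating enzyme gene (0.025), and then to Ppp3r1, the regulatory subunit of calcineurin (0.027). Calm2 was nearest to Ik and Asf1a (0.033 each), Taf1a to Clcc1 and Elmod2 (0.026 each), Rbm25 to Tdrd1 and Lamb1 (0.033 and 0.038) and Zfp57 to Gsta4 and Rgs2 (0.021 and 0.023). For comparison, the median distance over all candidates was 0.21 to 0.22.

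Genes that work with these 7 were read against all genes, of which 43.1% lay above background on all arrays. At an unadjusted p under 0.05 stood 14.2% of all genes for direct lysis and 7.98% for the kits. Of 23 calmodulin genes and targets with a row, 14 lay above background on all arrays, and 0 passed in either direction for direct lysis or between kits (limma, with 2 and 4 at an unadjusted p under 0.05). Calm3 encodes the same calmodulin protein as Calm2. It had 10.63, 9.57 and 10.12 with RNeasy, 9.33, 9.71 and 8.87 with PicoPure and 9.55, 9.68 and 9.36 with direct lysis. Its kits overlapped (PicoPure minus RNeasy -0.80 ± 0.29 SE, limma, adjusted p = 0.55). Its oocytes spread far more than those of Calm2, but at a mean of 9.65 against 13.10. Spread falls with the mean at the upper end of the scale, so these spreads do not compare the messages. The kinase gene Camk2g, which carries the calcium signal of fertilization, averaged 11.21 ± 0.23 (SD, n = 9) and Ppp3r1 10.83 ± 0.04.

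For Zfp57, 13 of 13 genes of imprint maintenance lay above background on all arrays. The maintenance methyltransferase gene Dnmt1 averaged 12.50 ± 0.05 (SD, n = 9), Uhrf1, which guides it to half-methylated DNA, 12.45 ± 0.10, and Dppa3, a maternal protector of methylation, 12.30 ± 0.09. None of the 13 passed in either comparison (limma, with 2 and 1 at an unadjusted p under 0.05). Of 19 genes of the U1 snRNP and its splicing partners, the group around Rbm25, 17 lay above background on all arrays and 0 passed (1 and 2 at an unadjusted p under 0.05). Luc7l3 averaged 12.35 ± 0.06, the U1 protein gene Snrnp70 12.11 ± 0.11 and Rbm39 12.04 ± 0.04.

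Around Taf1a, 12 of 16 genes of RNA polymerase I initiation lay above background on all arrays, and 0 passed (limma, with 1 and 3 at an unadjusted p under 0.05). The fellow subunit gene Taf1d averaged 12.24 ± 0.09 (SD, n = 9), the initiation factor gene Rrn3 11.88 ± 0.23 and Taf12 11.49 ± 0.15. Around Baiap2l1, 10 of 12 genes of its family and its actin partners lay above background on all arrays and 0 passed (3 and 0 at an unadjusted p under 0.05). Of the family genes, Baiap2 (mean 7.20) and Baiap2l2 (7.33) lay above background on only 2 and 6 arrays. Mtss1 (9.76) and Mtss2 (8.26) did so on all. The genes with the highest means in this list were actin partners. Cdc42, a small GTPase that shapes the actin cortex, averaged 11.62 ± 0.09, and the actin nucleation genes Wasf2 and Wasl 11.60 ± 0.13 and 11.07 ± 0.15.

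Of 21 genes of the oxidative stress response, listed for Oser1, 12 lay above background on all arrays. The superoxide dismutase gene Sod1 averaged 12.76 ± 0.07 (SD, n = 9), the peroxiredoxin gene Prdx2 12.37 ± 0.08 and the thioredoxin gene Txn1 11.97 ± 0.13. In this list 1 of 21 genes passed for direct lysis, against 1.01% of all genes. That gene was Keap1, the sensor that holds the antioxidant factor Nrf2 in check. It had 7.80, 7.48 and 7.75 with direct lysis and 6.57 to 7.27 in purified RNA. The difference was 0.72 ± 0.13 SE (limma, adjusted p = 0.0478), but it lay above background on 4 of 9 arrays, of which 1 was of purified RNA. With values raised to background it was 0.37 and did not pass (limma, adjusted p = 0.115). Between the kits 0 of the 21 passed. At an unadjusted p under 0.05 (limma) the list had 3 genes for direct lysis and 2 for the kits. The median difference for direct lysis was -0.03 for this list, 0.00 for all genes and within 0.07 of 0 for all 6 lists.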

How the data were processed

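The values are the normalized log2 expression values that the authors deposited, for 35556 rows on each of 9 arrays (0 missing). The submitters' processing notes name GCOS, Affymetrix Expression Console and GCRMA, without order. The scale was read from the values (2.41 to 13.90, array medians 7.12 to 7.24); the authors' build: not given in the sources used here. No scanner files were used, so background correction and normalization could not be repeated. Rows were named through GEO's platform table: 21789 rows had 1 symbol, 1621 several and 12146 none. Of the first, 21698 matched RefSeq (GRCm38.p6) by Entrez identifier and 0 symbols changed. For 999 genes with several rows the row with the highest mean was used, with no filter on level. Groups came from the sample titles. Differences were fitted with limma 3.58.1 in R 4.3.3 (lmFit, eBayes, 6 residual degrees of freedom), with two-sided p-values adjusted by the Benjamini-Hochberg method across the 19938 genes (threshold 0.05). A separate fit over all 21789 rows served the other rows of these genes. The scripts were tested on simulated data. Precision is limited by the number of arrays. The genes and lists were chosen with earlier results of these data known. Genes named are the 7, their neighbours in rank, the 2 nearest profiles of each, and of each list the 3 with the highest mean and any past the threshold. Family genes of Baiap2l1 are named besides, for their level. The alternatives were a further quantile normalization, median centring, a filter on level (above background on at least 3 arrays), values raised to background, another variance model, the mean of a gene's rows, the kits alone, a replicate block and leaving out each array.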

Additional observations from a re-analysis of the deposited data

How the results depend on the processing

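The count of the 7 genes past the threshold was 0 under every alternative run, 17 for direct lysis, 18 for the kits and 17 for the F test. Each number includes 1 chosen after seeing the data, Baiap2l1 shown by its own message's row. Single differences moved or changed sign, without passing. With the mean of a gene's rows, Rbm25 went from -0.0402 to -0.1775 for direct lysis and from 0.1177 to 0.0434 for the kits, and Gm1965 from 0.0294 to 0.0950 for direct lysis and from 0.0087 to 0.1573 for the kits. With a further quantile normalization Calm2 for the kits went from -0.1255 to -0.0361. For direct lysis, Calm2 was 0.0097 with a further quantile normalization, and Oser1 0.0111 with the mean of its rows. With single arrays left out, Oser1 ranged from -0.0423 to 0.0189, Rbm25 from -0.0629 to 0.0017, and, for the kits, Gm1965 from -0.0013 to 0.0151 and Taf1a from -0.0442 to 0.0153. Keap1 stayed higher in direct lysis (0.37 to 0.82) but passed in 3 of 16 alternatives. The number of all genes past the threshold moved from 201 to between 24 and 232 for direct lysis, from 12 to between 0 and 15 for the kits and from 127 to between 4 and 134 for the F test. Leaving out any RNeasy or PicoPure array lowered the count to between 24 and 116 for direct lysis, 0 and 4 for the kits and 4 and 47 for the F test. Without direct lysis replicate 1 the kits had 6, and without replicate 3 the F test had 66. The F test had 81 with a further quantile normalization, and the kits had 0 with another variance model or with only their own arrays. The cause was not tested. Leaving out 1 array moved no rank of the 7 by more than 2 places. The pooled SD between oocytes moved with the normalization. With a further quantile normalization Gm1965 went from 0.0152 to 0.0268 and Oser1 from 0.0528 to 0.0255. With median centring Gm1965 had 0.0344, the row labelled Baiap2l1 0.0416 and Calm2 0.0512. Replicate numbers are shared by the groups, but the labels give them no meaning, and deviations of same-numbered oocytes correlated at -0.07 to 0.11 over genes, against -0.09 to 0.14 for other pairs. With the replicate block 0 of the 7 genes passed, and the counts over all genes were 25, 0 and 14.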
